A study of Bos taurus with 15 samples.

Results

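The GIMAP genes (GTPases of immunity-associated proteins) were followed through the digestive tract, liver and salivary gland of newborn (NB) and adult (AD) Holstein cattle. They were taken by symbol from the gene list of the deposited single-cell matrices, where the symbols GIMAP4, GIMAP5, GIMAP6, GIMAP7 and GIMAP8 were sought. These symbols had been chosen by their difference in level between AD and NB libraries in the 5 classes of barcodes compared below. Of these 5 symbols 4 were found, on 7 of the 27270 listed genes: GIMAP4 (ENSBTAG00000046257), GIMAP5 (ENSBTAG00000004894), GIMAP8 (ENSBTAG00000014402) and 4 genes that all carry the symbol GIMAP7. The latter are called here, in the order of the gene list, GIMAP7A (ENSBTAG00000009850), GIMAP7B (ENSBTAG00000001198), GIMAP7C (ENSBTAG00000030940) and GIMAP7D (ENSBTAG00000008550). GIMAP6 was not analysed here.

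GIMAP proteins are GTP-binding proteins of lymphocytes that share an AIG1 domain and mostly sit on intracellular membranes. GIMAP5 lies on lysosomes, and its loss in rats and mice leaves the animal with few circulating T cells. GIMAP7 forms dimers that hydrolyse GTP and can do so with its relative GIMAP2, GIMAP4 has been tied to T cell death and cytokine release, and GIMAP8 is an unusually large member with several GTP-binding domains. The genes form a single cluster: in the RefSeq annotation of a later assembly (ARS-UCD2.0) the span from GIMAP8 to GIMAP5 on chromosome 4 held 21 genes, of which 6 had a GIMAP symbol, 4 were unnamed loci with the synonym GIMAP7, 3 were other protein-coding genes and 7 were pseudogenes. Related genes and pseudogenes can share reads, so the split of counts among the 4 GIMAP7 genes is uncertain, whereas their sum is less so.

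The study dissociated tissues and sequenced single cells with 10x 3′ chemistry, which counts unique molecular identifiers (UMIs) at the 3′ end, in 15 libraries, 1 per tissue and stage. The 11 NB libraries covered the stomach compartments reticulum, omasum and abomasum, the whole intestine from duodenum to rectum (jejunum, ileum, cecum and colon included), the salivary gland and the liver of 3 calves, and the 4 AD libraries from duodenum, jejunum, cecum and colon of 1 lactating cow. No labels tie an NB library to a calf, and no treatment or allele was involved. AD intestine was digested with a lamina propria kit (duodenum and cecum) or a multi tissue kit (jejunum and colon) followed by red cell lysis, while NB intestine was first stripped with EDTA and trypsin, so stage, animal and preparation cannot be told apart. With 1 library per tissue and stage there is no test, and every interval below is a 95% interval for counting error only.

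Libraries held 17707625 to 129458578 UMIs, and 119798 of 172405 barcodes were kept, with median depths of 4289 to 8790.5 UMIs in the NB and 3532 to 3870 UMIs in the AD libraries. No more than 35 kept barcodes were shared by any pair of libraries. The 5 classes were cut from the kept barcodes by 1 marker each and by the absence of the other 4: CD3E (T cell receptor complex, 29331 barcodes), MS4A1 (the B cell protein CD20, 6314), C1QA (complement of macrophages, 14096), PECAM1 (endothelium, 8308) and EPCAM (epithelium, 21479). Fibroblast barcodes with COL1A2 and none of the 5 markers (7951) served as background, and a class was used in a library where it held at least 20 barcodes. Each of the 5 markers is also in the marker list of its own cell type below. This choice raises that sum in its class and lowers it in the other 4.

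Levels are counts per 1000000 UMIs of the class (CPM). GIMAP transcripts were found mainly in CD3E barcodes: the summed level of the 7 genes lay between 1352 CPM (NB rectum) and 4669 CPM (AD jejunum) in the 13 libraries with enough of them. It lay between 11.3 and 861 CPM in MS4A1 barcodes and between 1.34 and 193 CPM in C1QA barcodes, and it reached 671 CPM in the EPCAM barcodes of the AD jejunum but was 0 in 3977 EPCAM barcodes of the NB reticulum, which allows up to 0.0763 CPM. COL1A2 barcodes outside the salivary gland had 0 to 49.7 CPM, and those of the salivary gland 212 CPM. AD colon gave the 49.7 CPM (35.5 to 67.6), and AD duodenum, jejunum and cecum held 0, 3 and 1 such barcodes, so those libraries have no background measured in this way.

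**Figure D1:**
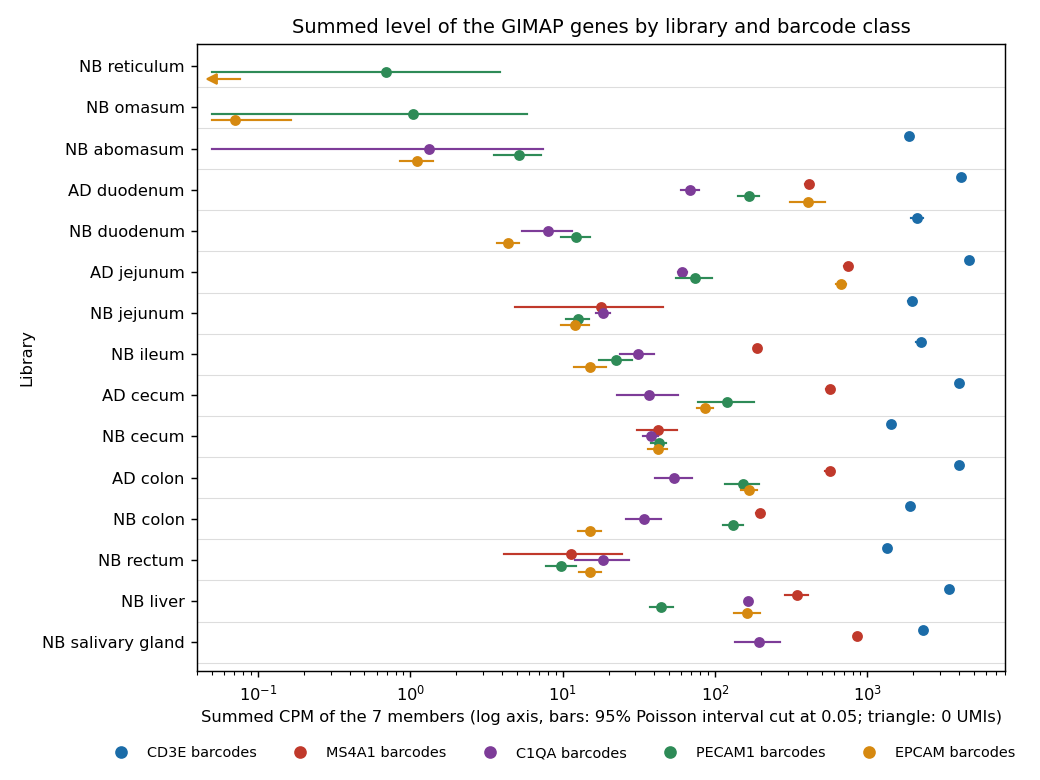
Summed level of the 7 GIMAP genes in each class of barcodes and library. The x axis is CPM on a log scale, rows are the 15 libraries, colours are the classes, bars are 95% Poisson intervals and a triangle marks 0 UMIs; CD3E barcodes are the highest class in every library that holds at least 20 of them, from 1352 CPM in the NB rectum to 4669 CPM in the AD jejunum.

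In CD3E barcodes GIMAP4 had 612 CPM in the AD duodenum, 1117 in the jejunum, 755 in the cecum and 655 in the colon. In the 9 NB libraries it ran from 267 CPM (cecum) through a median of 295 CPM to 402 CPM (liver). All 4 AD libraries stood above all 9 NB libraries, and among the NB libraries each interval overlapped that of its neighbour in the order.

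GIMAP5, the lysosomal member, had 299, 397, 328 and 309 CPM in AD duodenum, jejunum, cecum and colon. The NB libraries ran from 142 CPM (jejunum) through a median of 169 CPM to 319 CPM (salivary gland). Here the groups overlapped, since the NB salivary gland lay between the AD cecum and the AD colon, and the other 8 NB libraries lay below.

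Counts at the 3′ end do not scale with transcript length, and levels of different genes were set side by side as counted. Among the 4 GIMAP7 genes they stand only as the reads were assigned to them. Whether each gene was counted equally well was not tested, so orders of genes here and below hold for counts. As counted, in all 13 libraries GIMAP7D and GIMAP7C lay above GIMAP7A and GIMAP7A above GIMAP7B, and GIMAP7D exceeded GIMAP7C in all but the NB rectum. GIMAP7D had 1225, 1142, 1093 and 1144 CPM in AD duodenum, jejunum, cecum and colon, and in NB libraries 271 CPM (rectum) through a median of 584 CPM to 1155 CPM (liver). GIMAP7C had 871, 1091, 937 and 901 CPM in the same AD libraries, against 323 CPM (cecum) through 427 CPM to 808 CPM (liver) in NB. NB liver thus lay inside the AD range for GIMAP7D and below it for GIMAP7C.

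GIMAP7A had 487, 399, 411 and 395 CPM in AD duodenum, jejunum, cecum and colon, and 124 CPM (rectum) through 202 CPM to 327 CPM (liver) in NB. GIMAP7B was the lowest member in all 13 libraries, with 243, 219, 195 and 189 CPM in AD and 60.2 CPM (abomasum) through 80.9 CPM to 186 CPM (liver) in NB. The AD libraries were above the NB libraries for both, although for GIMAP7B the intervals of AD cecum and AD colon overlapped that of NB liver.

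GIMAP8 had 378, 306, 296 and 378 CPM in AD duodenum, jejunum, cecum and colon, and 105 CPM (rectum) through 179 CPM to 285 CPM (ileum) in NB. The interval of NB ileum (234 to 345 CPM, from 98 barcodes) reached into the AD values. For the sum of the 7 genes, the 4 AD libraries (3971 to 4669 CPM) came first, followed by NB liver (3407 CPM), NB salivary gland (2325 CPM) and NB ileum, duodenum, jejunum, colon and abomasum (2244 down to 1865 CPM). Neighbours in this order had overlapping intervals from NB salivary gland to abomasum, as did AD cecum and colon. NB cecum (1435 CPM) and NB rectum (1352 CPM) came last, and their intervals did not overlap.

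**Figure D2:**
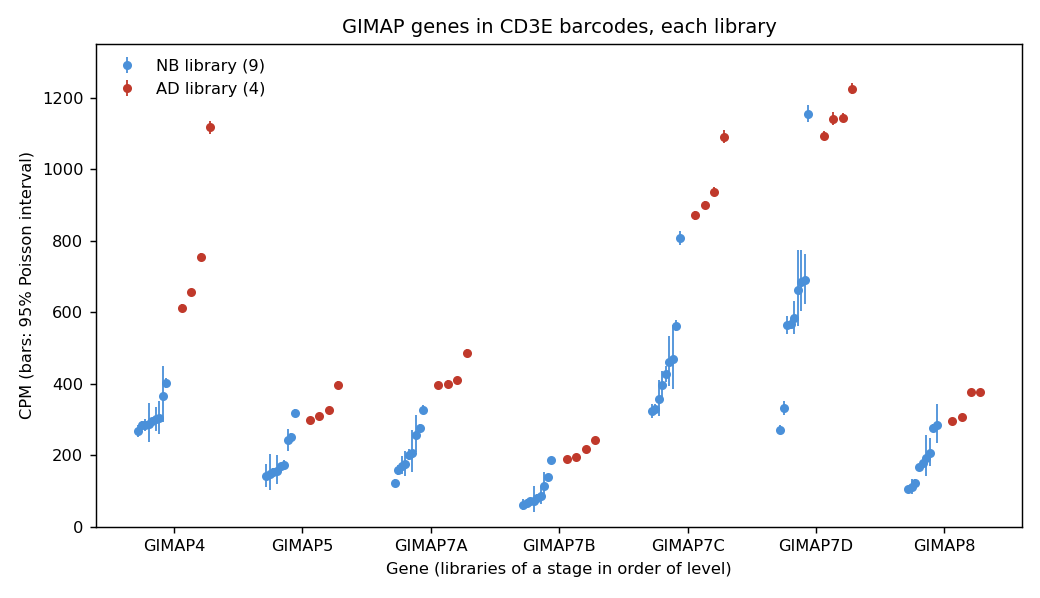
Level of each GIMAP gene in CD3E barcodes of 9 NB (blue) and 4 AD (red) libraries, in order of level. The axis is CPM and bars are 95% Poisson intervals; GIMAP4, GIMAP7A, GIMAP7B, GIMAP7C and GIMAP8 were higher in every AD library than in every NB library, with overlapping intervals for GIMAP7B and GIMAP8, while an NB library entered the AD range for GIMAP5 (salivary gland) and GIMAP7D (liver).

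Of the 4 tissues sampled at both stages, a gene was counted as higher in AD where its CPM was at least 2-fold higher with an interval that excluded a ratio of 1 and it reached 10 CPM in 1 of the 2 libraries. The genes were chosen with these values known, so the following is a description. In CD3E barcodes 20 of the 28 pairs of gene and tissue were counted as higher in AD and 0 as lower, where 13.6% of all 30535 tested pairs of gene and tissue were higher and 13.4% lower. The interval lay above 1 in 28 of 28 pairs, and ratios ran from 1.48 (GIMAP8, jejunum) to 3.67 (GIMAP4, jejunum) with a median of 2.29.

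The cecum had all 7 members counted as higher, the jejunum and the colon 5 each and the duodenum 3, against 13.3%, 15.1%, 16% and 10% of all genes. The sum of the members was 1.95-fold higher in AD duodenum (1.78 to 2.13), 2.38-fold in jejunum (2.24 to 2.53), 2.80-fold in cecum (2.72 to 2.88) and 2.09-fold in colon (2.04 to 2.15). The median log2 ratio of the members was 0.97 in duodenum, 1.35 in jejunum, 1.38 in cecum and 1.08 in colon, where the median of all tested genes was 0.13, 0.24, 0.06 and 0.10. The members had been chosen by their difference in level, so their larger shift is not read as a result.

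The members did not share 1 ratio. In the jejunum GIMAP4 was 3.67-fold (3.16 to 4.29) and GIMAP7C 3.04-fold (2.65 to 3.51) higher, but GIMAP7D 1.65-fold (1.50 to 1.83) and GIMAP8 1.48-fold (1.23 to 1.80). In the cecum GIMAP7D had the highest ratio of the 7, 3.29 (3.11 to 3.49). GIMAP7B led in the duodenum with 3.41 (2.13 to 5.86, from 17 UMIs in NB) and in the colon with 2.78 (2.45 to 3.18).

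Canonical T cell genes also had higher CPM in AD CD3E barcodes. The 6 T cell markers include the class marker CD3E. They summed to 3604 to 6139 CPM in AD and 1436 to 2236 CPM in NB, with 21 of 24 tested pairs counted as higher. In NB, stromal markers summed to 1.43 to 1629 CPM in these barcodes (median 580 CPM), and to 0.234 to 160.0 CPM in AD, whereas the 3 plasma cell markers summed to 10.2 to 432 CPM in NB and 1321 to 4481 CPM in AD. The part of these transcripts in the GIMAP ratios was not tested.

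Set per UMI of CD3D, CD3G and CD2, subunits and a surface partner of the T cell receptor, a scale chosen after the values had been seen, most ratios fell below 1, as did those of most genes. These T cell genes themselves had 1.85, 3.67, 3.84 and 3.59 times the NB CPM in AD duodenum, jejunum, cecum and colon, so the scale lowers every ratio of a tissue by that factor. The summed members came to 4.57 per T cell gene UMI in AD and 4.34 in NB duodenum (ratio 1.05, 0.859 to 1.29). In jejunum they came to 4.41 and 6.80 (0.648, 0.550 to 0.764), in cecum to 3.16 and 4.33 (0.729, 0.685 to 0.777) and in colon to 2.93 and 5.02 (0.584, 0.550 to 0.620). Of the 28 pairs, 19 had an interval below 1, 8 held 1 and 1, GIMAP7B in the duodenum (1.84), lay above it, where 74.4% of all tested pairs had an interval below 1 and 1.40% above it. Counted at 2-fold, 0 members were higher and 3 lower, against 0.894% and 66.9% of all pairs. The median ratio of all tested genes was 0.591 in duodenum, 0.323 in jejunum, 0.271 in cecum and 0.299 in colon, below the summed members in each.

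**Figure D3:**
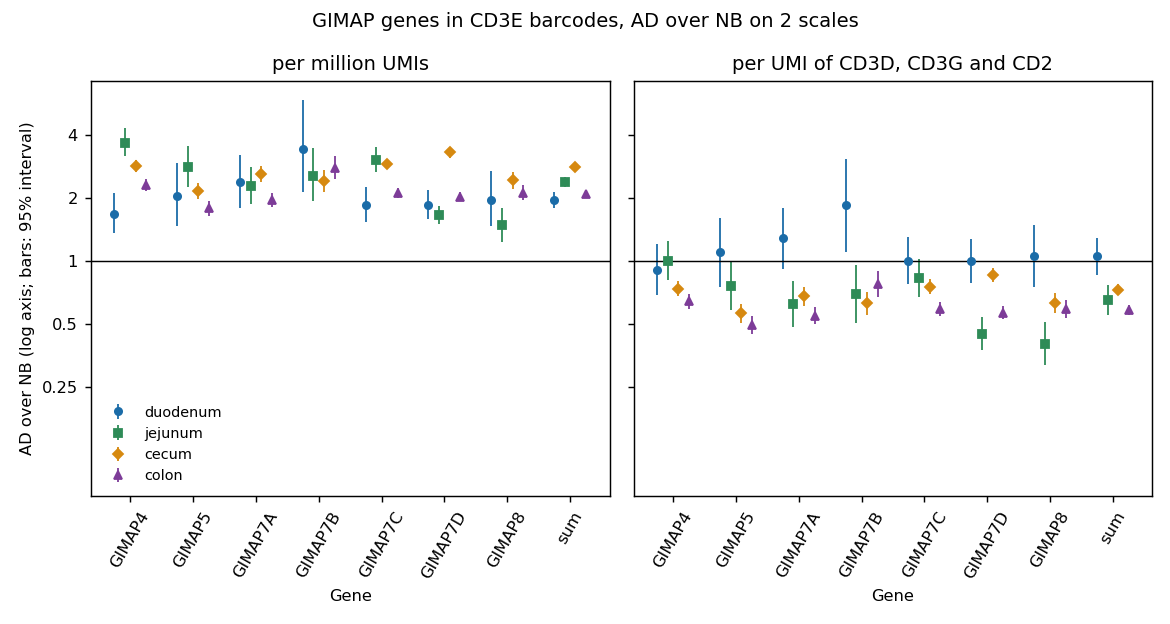
Ratio of AD to NB in CD3E barcodes for each GIMAP gene and their sum in 4 tissues, on a log axis with 95% intervals. On the left, in CPM, all 28 member ratios lie above 1 (1.48 to 3.67); on the right, per UMI of CD3D, CD3G and CD2, where every gene of a tissue is lowered by 1 factor, they run from 0.404 to 1.84 and 19 intervals lie below 1.

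To set shares of barcodes against each other, each barcode was thinned to 1000 UMIs. A UMI of any member was then found in 95.1% of CD3E barcodes in AD duodenum, 94.6% in jejunum, 96.0% in cecum and 95.9% in colon. NB liver followed with 93.3%, then salivary gland (86.6%), ileum (84.2%), abomasum (83.3%), jejunum (76.2%, 68.4 to 82.9), duodenum (75.9%, 62.4 to 86.5), cecum (68.1%), rectum (67.4%) and colon (66.7%). Without thinning the shares were 97.1 to 99.3% in AD and 83.8 to 98.9% in NB. In COL1A2 barcodes, which should lack the genes, thinned shares were 0 to 3.05% outside the salivary gland (19.4%).

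In the AD libraries most CD3E barcodes held several members at once. After thinning, 2 or more of the 7 genes were found in 82.5 to 87.1% of AD and 33.9 to 76.3% of NB CD3E barcodes. GIMAP7D was found in 69.1% of AD and 51.7% of NB jejunum barcodes, and in 66.3% of AD and 39.0% of NB colon barcodes. GIMAP4 was found in 63.4% of AD and 33.6% of NB jejunum barcodes. At equal depth a higher level by itself raises the share of barcodes with a UMI. The shares are therefore not read as an observation apart from the levels. Whether more barcodes express the genes, or each expresses more, was not tested.

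Within the CD3E class, the lowest GIMAP levels were in barcodes that held RAG1 or DNTT, the recombinase and the nucleotide-adding polymerase of developing lymphocytes. In the NB colon 117 of the 637 CD3E barcodes (18.4%) had a UMI of either, and their summed level was 339.9 CPM (299.8 to 384), against 2322 CPM (2266 to 2379) in the other 520, a ratio of 0.146 (0.129 to 0.166). This was the single library in which both sides held at least 20 barcodes. Proliferating barcodes, those with the cell cycle protein MKI67, were also low in NB colon, at 712 CPM against 2201 CPM (0.323, 0.295 to 0.354).

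The 2 properties overlapped. Barcodes with RAG1 or DNTT had 178 CPM where they also held MKI67 (50 barcodes) and 611 CPM where they did not (67 barcodes). Without RAG1 or DNTT the level was 1741 CPM with MKI67 (27 barcodes) and 2378 CPM without (493 barcodes). In the other 9 libraries the ratio of barcodes with MKI67 to those without ran from 0.792 (NB liver) to 1.28 (NB cecum), so that NB colon stood apart.

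Splits by other T cell genes moved the sum by less. Barcodes with CD4 and no CD8A had less than those with CD8A and no CD4 in 6 of 9 libraries and more in 1, from 0.652 (NB colon) to 1.10 (NB rectum). Barcodes with the homing receptor CCR7 had 0.848 to 0.999 times the level of those without it in 9 libraries, with 5 intervals below 1. Barcodes with granzyme B (GZMB) had 0.844 to 1.17 times the level in 8 libraries, and FOXP3, the factor of regulatory T cells, could be split in 1 library (1.07).

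In the colon, the AD library stayed higher in CPM within 3 such subsets. Without RAG1 or DNTT barcodes the sum was 1.71-fold higher in AD than in NB colon (1.67 to 1.75), where the whole class gave 2.09. Among colon barcodes with CD8A and no CD4 it was 1.57-fold and among those with MKI67 5.24-fold higher (3733 against 712 CPM). The MKI67 barcodes were not alike in the 2 stages. Of the 77 in NB colon, 50 also held RAG1 or DNTT (178 CPM) and 27 did not (1741 CPM). All 6822 CD3E barcodes of AD colon were without RAG1 or DNTT.

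Before MS4A1 barcodes are compared, their label needs a check. B cell markers summed to 1795 to 2870 CPM in AD and to 2321, 2418 and 2380 CPM in NB ileum, colon and salivary gland, but to 165, 222 and 282 CPM in NB jejunum, cecum and rectum. Those 3 libraries instead held 365, 306 and 243 CPM of dendritic cell markers, and their 20, 77 and 52 barcodes go against a B cell label. NB liver (49 barcodes) was intermediate, with 725 CPM of B cell and 229 CPM of dendritic cell markers.

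In MS4A1 barcodes the summed members were highest in NB salivary gland (861 CPM), followed by AD jejunum (740.4 CPM), cecum (567 CPM), colon (565 CPM) and duodenum (412 CPM), NB liver (345 CPM), colon (196 CPM) and ileum (188 CPM). NB cecum, jejunum and rectum, the libraries short of B cell markers, had 42.0, 17.8 and 11.3 CPM. NB salivary gland, as counted, therefore exceeded every AD library, and the stages overlapped over all libraries. Its COL1A2 barcodes had 212 CPM (169 to 262), and AD duodenum, jejunum and cecum have no such background. The part of free RNA in this order was not tested.

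Tissue by tissue, 20 of 21 tested pairs were counted as higher in AD and 0 as lower (15.4% and 14.4% of all pairs), but 14 of the 21 reached 10 CPM in the AD library only, which fixes their direction. All 7 members were counted in the jejunum and all 7 in the cecum (8.36% and 27% of all genes), both against the NB libraries short of B cell markers. In the NB jejunum 5 of the 7 had 0 UMIs, so those ratios are lower bounds. In the colon, where both libraries carried B cell markers, 6 of 7 members were counted (10.4% of all genes). The sum was 565 CPM in AD and 196 CPM in NB (2.88-fold, 2.61 to 3.17). In the same barcodes plasma cell markers summed to 25334 CPM in AD and 3247 CPM in NB, T cell markers to 44.0 and 15.7 CPM and stromal markers to 129.5 and 65.0 CPM, and their part was not tested. GIMAP4 (84.0 against 15.5 CPM, 5.41-fold, 4.02 to 7.31) and GIMAP7D (177 against 37.6 CPM, 4.70-fold, 3.87 to 5.72) had the largest ratios. GIMAP7A had 29.8 against 24.0 CPM (1.25, 0.842 to 1.80).

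MS4A1 barcodes differed from CD3E barcodes in which member was abundant. GIMAP5 made up 18.6 to 34.2% of the member UMIs in the MS4A1 barcodes of AD duodenum, jejunum, cecum and colon and of NB ileum, colon, liver and salivary gland, and 6.94 to 13.7% in CD3E barcodes. In NB salivary gland it was the leading member, with 295 CPM, and its level there in CD3E barcodes was 319 CPM. The GIMAP7 genes and GIMAP4 lay far below their CD3E levels in the same barcodes.

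Proliferating MS4A1 barcodes had low levels in 4 of 5 libraries. With and without MKI67 the sum was 21.8 and 348 CPM in NB colon (0.0626), 101 and 328 CPM in NB ileum (0.309), 70.8 and 492 CPM in AD duodenum (0.144), and 144 and 647 CPM in AD cecum (0.223). In AD jejunum it was 726 and 743 CPM (0.978, an interval that held 1). Among barcodes without MKI67, AD colon had 599.8 CPM and NB colon 348 CPM, a ratio of 1.72 (1.56 to 1.90) in place of 2.88.

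C1QA barcodes carried macrophage markers in all libraries and low GIMAP levels. Of 28 pairs 10 reached the limit of 10 CPM, of which 7 were higher in AD and 0 lower (7.33% and 14.1% of all pairs). All 10 reached it in the AD library only, which fixes their direction, so nothing is read from that count. The split of all counted pairs in this class was 34.2% higher, and 46.1% higher with abundant genes left out of the total. Members counted as higher numbered 3 in duodenum, 3 in jejunum, 0 in cecum and 1 in colon, against 3.44%, 5.32%, 6.71% and 13.8% of all genes. The sum was 68.6 CPM in AD and 8.02 CPM in NB duodenum (8.56-fold, 5.83 to 13.0), and 61.0 and 18.3 CPM in jejunum (3.33-fold, 2.94 to 3.77). In cecum it was 37.0 and 37.8 CPM (0.980, 0.590 to 1.54), and in colon 53.7 and 34.4 CPM (1.56, 1.05 to 2.31). The AD colon level lay within the interval of its COL1A2 barcodes (35.5 to 67.6 CPM). COL1A2 barcodes of NB duodenum, jejunum, cecum and colon had 17.1, 22.4, 35.1 and 28.1 CPM. The NB level of C1QA barcodes lay below this in duodenum. In jejunum it was also lower, though its interval (16.5 to 20.4 CPM) overlapped that of COL1A2 barcodes (19.3 to 25.9 CPM). In cecum and colon the intervals overlapped as well. AD duodenum, jejunum and cecum have no such background, so these ratios were not set against it. Markers of other cells differed between the same barcodes. Plasma cell markers summed to 6492 to 17898 CPM in AD and 16.5 to 1012 CPM in NB, endothelial markers to 0.621 to 1.85 and 41.5 to 333 CPM, and stromal markers to 0 to 871 and 932 to 5462 CPM. T cell markers summed to 161 to 232 CPM in AD and 96.5 to 234 CPM in NB, most of it CD2, while CD3D had 3.72 against 0.267 CPM in duodenum and 4.42 against 0.159 CPM in jejunum. Their part in the GIMAP levels was not tested.

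The 3024 C1QA barcodes of NB liver had 165 CPM (GIMAP7D 50.4, GIMAP7C 35.0, GIMAP4 25.7 and GIMAP8 22.1 CPM), and 11% of them held a member after thinning. The part of free RNA in that level was not tested.

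PECAM1 barcodes of the AD duodenum (87) and jejunum (80) went against an endothelial label, with endothelial markers at 124 and 152 CPM and plasma cell markers at 171536 and 45325 CPM. Those of the AD cecum (28) and colon (45) carried both, with endothelial markers at 837 and 2323 CPM and plasma cell markers at 71967 and 56073 CPM. NB PECAM1 barcodes had endothelial markers at 2607 to 5017 CPM apart from NB liver, which had 356 CPM and neutrophil markers at 2606 CPM, and plasma cell markers at 5.06 to 2097 CPM. Of 21 tested pairs 12 were higher in AD and 1 lower (7.09% and 31.4% of all pairs), but 14 reached 10 CPM in the AD library only and 1 in the NB library only, which fixes their direction. Of all counted pairs 18.4% were higher, but 46.8% when libraries were scaled by the median ratio over genes and 43.4% with abundant genes left out of the total. Members higher numbered 6 in duodenum, 3 in jejunum, 2 in cecum and 1 in colon, against 5.3%, 13.1%, 4.17% and 5.83% of all genes, and the lower one, GIMAP8, was in the jejunum, where 32.3% of genes were lower. With 2 UMIs of PECAM1 or 2 endothelial genes required, 0 pairs were counted as higher in the tissues that still had enough barcodes.

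In NB duodenum and jejunum, GIMAP8 made up 68.6% and 83.6% of the member UMIs in PECAM1 barcodes. Its level in the jejunum was 10.5 CPM in PECAM1, 7.42 in EPCAM, 12.9 in COL1A2 and 9.06 in C1QA barcodes, and in the duodenum 8.34, 3.81, 7.59 and 5.08 CPM. The duodenum interval was 6.35 to 10.8 CPM in PECAM1 and 3.17 to 4.54 CPM in EPCAM barcodes, and that in COL1A2 barcodes (4.34 to 12.3) overlapped both. The part of free RNA in these levels was not tested. Barcodes with the lymphatic genes PROX1 or LYVE1 had a lower sum than other PECAM1 barcodes in 6 of 9 libraries (NB cecum 9.13 against 65.3 CPM), and those with PTPRC, the pan-leukocyte protein CD45, a higher one in 7 of 9.

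EPCAM barcodes held 671 CPM of GIMAP transcripts in the AD jejunum, 167 CPM in AD colon and 85.7 CPM in AD cecum. NB libraries had 0 to 42.1 CPM apart from NB liver, whose 100 EPCAM barcodes had 163 CPM (133 to 198), within counting error of AD colon and above AD cecum. Of 17 tested pairs 16 were higher in AD and 0 lower (20.7% and 9.38% of all pairs). Those 16 reached 10 CPM in the AD library only, which fixes their direction, so nothing is read from that count, and the 1 pair that did so in the NB library only, GIMAP7D in the cecum, had 6.31 CPM in AD and 12.1 CPM in NB (0.522, 0.291 to 0.898). Of all counted pairs 68.8% were higher, and 45.2% after scaling by the median ratio. Members higher numbered 5 in duodenum, 5 in jejunum, 2 in cecum and 4 in colon, against 15.9%, 24.5%, 12.3% and 29.8% of all genes. The share of genes lower in AD was 7.92%, 9.64%, 14.1% and 5.88% in the same tissues. The AD jejunum (117 barcodes) had 671 CPM against 12.1 CPM in NB (55.4-fold, 44.4 to 70.0), made up of GIMAP7C (251 CPM), GIMAP8 (183), GIMAP4 (140.3), GIMAP5 (65.9), GIMAP7D (29.2) and GIMAP7A (1.88), with GIMAP7B at 0 UMIs. AD duodenum had 409 CPM, but from 20 barcodes. COL1A2 barcodes of NB jejunum had 22.4 CPM (19.3 to 25.9), above the 12.1 CPM of its EPCAM barcodes, and AD jejunum has no such background.

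In AD colon the sum was 167 CPM (GIMAP8 102, GIMAP5 29.7, GIMAP7C 16.2 and GIMAP7D 11.6 CPM) against 15 CPM in NB (11.1-fold, 8.95 to 13.8). In AD cecum it was 85.7 CPM (GIMAP8 36.2, GIMAP5 32.2 and GIMAP7D 6.31 CPM) against 42.1 CPM (2.04-fold, 1.68 to 2.48). GIMAP8 was thus the leading member in both, while in CD3E barcodes it made up 5.96 to 12.7% of the member UMIs. It also led in EPCAM barcodes of NB duodenum (3.81 of 4.39 CPM) and NB jejunum (7.42 of 12.1 CPM), though not in NB abomasum. In COL1A2 barcodes of AD colon it led as well (13.7 of 49.7 CPM).

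These barcodes carried epithelial markers (3744 to 11708 CPM in AD). T cell markers summed to 55.5, 13.2, 12.0 and 22.0 CPM in AD duodenum, jejunum, cecum and colon and to 1.83, 2.34, 10.7 and 5.59 CPM in NB. B cell markers summed to 69.3, 28.3, 51.5 and 52.4 CPM in AD and 5.33, 3.16, 26.1 and 29.1 CPM in NB. Both were higher in AD in each tissue. Macrophage markers summed to 13.9, 41.4, 5.32 and 7.11 CPM and dendritic cell markers to 6.93, 16.0, 0 and 12.3 CPM in the same AD libraries. Within AD the jejunum thus had the highest GIMAP sum, the lowest B cell markers and the highest macrophage and dendritic cell markers. In AD jejunum 4 of the 6 T cell markers had a UMI, CD3G was at 0 UMIs and 0 of the 3 NK cell markers were seen. There were 4 UMIs of CD3D, CD3G and CD2. EPCAM barcodes were chosen for the absence of CD3E, which also lowers other T cell transcripts, so nothing is read from these low counts. GIMAP7D, a leading member of CD3E barcodes, was 4.35% of the member UMIs. Plasma cell markers reached 1732 to 77947 CPM and mast cell markers 5.32 to 76.3 CPM in the AD EPCAM barcodes, against 12.1 to 1242 and 0.366 to 24.4 CPM in NB. Stromal markers were at 0 UMIs in AD duodenum, jejunum and cecum and had 675 CPM in AD colon, against 86.4 to 3030 CPM in NB, where the cecum was highest beside 4042 CPM of epithelial markers. The part of these cells in the GIMAP levels was not tested. Without barcodes that held PTPRC the sum remained 742 CPM in AD and 7.96 CPM in NB jejunum (93.2-fold, 71.1 to 124), 172 and 8.09 CPM in colon (21.2-fold) and 88.6 and 17.9 CPM in cecum (4.96-fold). NB barcodes with PTPRC carried much of the NB signal, with 208 CPM in NB colon against 8.09 CPM without it. Among EPCAM barcodes with PTPRC the direction was reversed. They had 32.8 CPM in AD and 164 CPM in NB cecum (0.200, 0.0638 to 0.480, from 5 UMIs in AD). In colon they had 101 and 208 CPM (0.487, 0.231 to 0.933, from 11 UMIs in AD).

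After thinning, a member was found in 34.8% of AD jejunum EPCAM barcodes (26.1 to 44.2, or 65.8% without thinning), 30.0% in AD duodenum, 12.8% in AD colon and 8.16% in AD cecum. In NB these shares were 1.82% in jejunum, 0.562% in duodenum, 2.03% in colon and 3.11% in cecum. AD jejunum barcodes with a tuft cell gene, a marker of chemosensory epithelial cells, had 309.6 CPM, below the 770.1 CPM of those without (0.402). In AD colon the same split gave 95.7 and 177 CPM (0.542). Of the 7 libraries that could be split, these 2 were lower with a tuft cell gene, 4 had an interval that held 1, and NB reticulum had 0 member UMIs on both sides.

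Other genes of T cell state were set beside the members in CD3E barcodes. Of effector and tissue-residence genes, 25 of 44 tested pairs were higher in AD and 5 lower. CCL5, a chemokine of memory and cytotoxic T cells, was higher in all 4 tissues (2.10, 4.67, 32.3 and 24.0-fold in duodenum, jejunum, cecum and colon), and so was granzyme A (GZMA; 2.01, 17.7, 5.96 and 289.9-fold). Of the naive and recirculating list, 7 of 34 pairs were higher and 12 lower, and 0 genes were higher or lower in all 4 tissues. In cecum and colon CCR7 stood at 0.0543 and 0.0286 times and LEF1, a factor of naive T cells, at 0.191 and 0.102 times its NB level. Other members of the list went the other way, among them the interleukin 7 receptor IL7R, higher in duodenum and cecum.

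Among 53 tested pairs of the lymphocyte survival list 13 were higher and 2 lower. JAK3, the kinase of the common gamma chain receptors, was higher in all 4 tissues (2.22 to 3.16-fold), the interleukin 7 receptor IL7R in duodenum (7.34-fold) and cecum (2.59-fold), and BCL2, the survival protein that has been linked to GIMAP5, in none. Of the GABARAP and LC3 genes, whose proteins include a partner of GIMAP6 in autophagy, 4 of 38 pairs were higher and 2 lower; the autophagy receptor SQSTM1 stood at 0.250 in jejunum and 0.382 in cecum. Over all genes 13.6% of pairs were higher and 13.4% lower, but for the 6 T cell markers 21 of 24 pairs were higher. Whether the listed genes differed by more than such T cell genes was not tested.

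Over 65 groups of class and library, each member followed the mean of the other 6 closely, with Pearson correlations of log2(CPM + 5) from 0.93 (GIMAP8) to 0.99 (GIMAP7C). Among 6930 genes of at least 50 CPM in a group, genes without a symbol held ranks 1 to 6 of likeness to the mean of the members (0.98 to 0.94). ENSBTAG00000040331 (0.98) and ENSBTAG00000000715 (0.97) came first. The first 5 with a symbol were the T cell receptor kinases ZAP70 (rank 7) and LCK (rank 9, both 0.94), the lymphocyte surface glycopeptide CD52 (0.93), the septin SEPTIN1 (0.93) and the ubiquitin-like UBD (0.93). The groups mix CD3E barcodes with classes of low level, and CD3D reached 0.91 with the mean of the members. Such values need not mean more than a shared high level in CD3E barcodes. The groups also share libraries and animals, so the correlations are descriptions.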

How the data were processed

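Per the labels and the study's methods, the authors demultiplexed reads and counted UMIs per gene with Cell Ranger 3.1.0 on ARS-UCD1.2 (the annotation release is not given in the sources used here) and deposited whole-number UMI counts per gene and barcode, not normalized. From these, a barcode was kept if it had 500 to 4000 genes, fewer than 50000 UMIs and less than 40% of them from the 13 protein-coding mitochondrial genes. Doublets were scored against simulated ones (2 per barcode, 30 principal components, 2000 variable genes), and those scoring highest were dropped, at a rate of 0.8% for every 1000 barcodes; the study's own tool was not run. Counts were summed over the barcodes of a class in each library and divided by the class total.

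A pair of gene and tissue was tested for a fold of 2 where a library reached 10 CPM, more than 3 UMIs were seen in either library and both held 20 barcodes. Ratios carry exact conditional binomial intervals, levels exact Poisson intervals and shares exact Clopper-Pearson intervals, all at 95%; a side at 0 UMIs was set to a floor of 3 counts per library. No replicates exist, so no test was made. On counts simulated for CD3E barcodes of the colon (7052 genes past the limit of 10 CPM), the rule recovered 199 of 200 genes changed 4-fold, the other 1 having fallen below that limit, and counted 2 of 6853 unchanged ones. Genes like the members needed 50 CPM in a group, and a pseudocount of 5 CPM was added.

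The members and gene lists were chosen with earlier results of these data known. The named genes were the members, the genes of the lists for T cell state, survival and autophagy, and the 5 genes with a symbol most like the members; tuft cell genes, PTPRC in other splits and the scale of CD3D, CD3G and CD2 were chosen after values had been seen. The results of 1 gene list and 1 split are not reported here. The plan counted 5 genes, but the symbols matched 7. The software was SciPy 1.17.1, scikit-learn 1.9.0, pandas 2.3.3, NumPy 2.4.6 and matplotlib 3.10.9 under Python 3.11.15. Alternatives in the definition of classes, filters, doublets, scaling, depth and fold were computed and are given in the closing section.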

Additional observations from a re-analysis of the deposited data

Results flagged for a closer look

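A pair of results went in opposite directions in different tissues, and the difference between tissues was not tested. GIMAP8 in PECAM1 barcodes was 2.66 times its NB level in AD duodenum (1.54 to 4.45) and 0.259 times in AD jejunum (0.0310 to 0.959, from 2 UMIs in AD). GIMAP7D in EPCAM barcodes was 186 times its NB level in AD duodenum (68.2 to 494, from 9 UMIs in 20 AD barcodes), 19.3 times in jejunum (9.45 to 42.6) and 3.33 times in colon (1.75 to 6.17), but 0.522 times in cecum (0.291 to 0.898). Each of these pairs reached 10 CPM in 1 of the 2 libraries only, which fixes its direction, and PECAM1 barcodes of the AD duodenum and jejunum went against an endothelial label. No group had 4 libraries of 1 tissue and stage, so no library could be checked for standing apart from its replicates.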

How the results depend on the processing

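No paired analysis was possible because each tissue and stage has 1 library. In CD3E barcodes the 20 pairs of member and tissue counted as higher in AD came to 14 to 27 under the other settings, apart from a fold of 3 (4) and scaling to UMIs of CD3D, CD3G and CD2, which left 0 higher and 3 lower (0.894% and 66.9% of all pairs). In MS4A1 barcodes the 20 became 12 with 2 UMIs of the marker and 9 with 2 marker genes (2 tissues each), 9 after thinning, 10 without MKI67 barcodes (2 tissues) and 6 without jejunum and cecum. In C1QA barcodes the 7 became 28 whatever the other 4 markers and 14 without the filter on low values. In PECAM1 barcodes the 12 became 0 with 2 UMIs or 2 genes, 28 whatever the other 4 markers, 4 after thinning and 19 as a mean per barcode, and the 1 lower pair became 0 under both stricter markers, whatever the other 4 markers, without PTPRC barcodes, under both other scalings and after thinning. In EPCAM barcodes the 16 became 10 with 2 UMIs, 2 genes or thinning and 28 whatever the other 4 markers, while 1 pair became lower with mitochondrial UMIs under 10%, under both other scalings, as a mean per barcode, without the filter on low values or at a fold of 1.5.

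Of 1309 values of the 116 log2 ratios under other settings, 976 stayed within counting error. In all 61 changed sign, of which 22 were of ratios counted as 2-fold in CPM. Scaled to the 3 T cell genes, the jejunum gave −0.00 (−0.000408) for GIMAP4, −0.39 for GIMAP5, −0.69 for GIMAP7A, −0.52 for GIMAP7B, −0.27 for GIMAP7C and −0.63 for the sum. The cecum gave −0.44 for GIMAP4, −0.83 for GIMAP5, −0.56 for GIMAP7A, −0.67 for GIMAP7B, −0.41 for GIMAP7C, −0.22 for GIMAP7D, −0.66 for GIMAP8 and −0.46 for the sum, and the colon −0.64 for GIMAP4, −0.36 for GIMAP7B, −0.77 for GIMAP7C, −0.82 for GIMAP7D, −0.76 for GIMAP8 and −0.78 for the sum. Among ratios not counted as 2-fold, the same scale put GIMAP4 (0.906) and GIMAP7D (0.999) in the duodenum, GIMAP7D (0.4503) and GIMAP8 (0.404) in the jejunum and GIMAP5 (0.496) and GIMAP7A (0.547) in the colon below 1. GIMAP8 gave −0.94 in MS4A1 barcodes of the jejunum after thinning, and 2.18 in PECAM1 barcodes of the jejunum whatever the other 4 markers. The cause was not tested, beyond the fewer tissues that stricter classes leave. The T cell scale, the MKI67 and tuft splits and leaving out tissues were chosen after seeing the data.

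Some classes rest on few barcodes, among them 20 NB jejunum MS4A1 barcodes, 28 AD cecum PECAM1 barcodes and 20 AD duodenum EPCAM barcodes. Intervals cover counting error and say nothing of animals.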

Other observations

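Other leukocytes were looked at by further markers, chosen after values had been seen. Barcodes with NCR1, a receptor of natural killer cells, and none of the 5 class markers were set beside CD3E barcodes. In NB cecum their summed GIMAP level was 1585 CPM (1411 to 1774, 25 barcodes), within counting error of 1435 CPM (1397 to 1474) in CD3E barcodes. It was lower in NB colon, 1460.0 CPM (1274 to 1666, 24 barcodes) against 1898 CPM (1853 to 1943). In NB liver it was also lower, 2928 CPM (2758 to 3107, 77 barcodes) against 3407 CPM (3368 to 3447). GIMAP7D came first in the 3 libraries, with 477, 601 and 898 CPM, and a member was found in 80.0%, 62.5% and 92.2% of the thinned barcodes. NK cell markers, among them NCR1 itself, by which these barcodes were chosen, summed to 370.0 to 514 CPM there.

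Barcodes with JCHAIN, a protein of plasma cells, ran from 0 CPM in NB omasum to 670.0 CPM in NB salivary gland, where GIMAP5 (208 CPM) and GIMAP7D (202 CPM) led. The 4 AD libraries lay closer together, at 257 CPM in duodenum, 186 in jejunum, 184 in cecum and 196 in colon, and NB colon had 177 CPM. Barcodes of mast cells (CPA3), neutrophils (CSF3R) and dendritic cells (FLT3) stayed lower, at 0 to 82.8, 5.72 to 100.0 and 0 to 48.0 CPM.

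In NB colon, the CD3E barcodes with RAG1 or DNTT also differed in other genes of T cell development. PTCRA, the surrogate alpha chain of immature T cells, had 406 CPM in them and 5.00 CPM in the remaining CD3E barcodes, while the homing receptor CCR7 had 0 UMIs in them and 110.5 CPM in the rest. CD3D had 148 against 294 CPM and CD2 31.5 against 103 CPM, but BCL2 had 76.1 against 77.6 CPM. The B cell receptor gene CD79A had 109 against 76.9 CPM. Whether these barcodes come from 1 cell type was not tested.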
